A study of Sorghum bicolor with 5 samples.

Results

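A range of sorghum chromosome 3 holds copies of organelle genes, and the RNA counts of its 50 detected genes in young leaves are described here plant by plant. The range runs from *SORBI_3003G168100* to *SORBI_3003G174301* in the numbering of the loci. It holds 70 rows, of which 50 had at least 10 counts over the 5 libraries and are the members, 5 had fewer counts and 15 had none. The whole series has 23098 genes at that level, 3331 of them on chromosome 3. The range was proposed because many of its genes stand high in 1 plant of the faster-growing line. Every value of the members across the plants is therefore a description, and no test of it is offered as support.

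The study compared gene expression in 2 epi-F3 lines of sorghum that differ in growth. Both derive from crosses of wild-type Tx430 with plants that descend from *MSH1*-RNAi lines and had lost the transgene. *MSH1* is a nuclear gene for a protein of mitochondria and plastids. Epi-F3 low (line 15, labelled non-enhnaced epiF3) is represented by 3 plants and epi-F3 high (line 68, labelled enhanced epiF3) by 2 plants, with 1 library per plant, and each growth class is 1 line. All plants carried the Tx430 background and were raised under days of 14 h at 28°C and nights at 22°C. They were sampled at 4 weeks by the methods of the paper, whose results give an age in days short of 4 weeks. The titles number the epi-F3 high plants 1 and 3, given here as replicates 1 and 2. The paper describes 3 plants of each line, and 2 of epi-F3 high were available here. No wild-type library was analysed here. Markers of leaf cells were not checked here. The libraries held 48372266 to 68979436 counts in genes, and levels are given as CPM, counts scaled to library size with TMM, a factor that evens out differences in composition between libraries.

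Plastids and mitochondria keep small genomes of their own, which encode parts of the photosystems, the respiratory complexes and the organelle ribosomes. Stretches of this DNA also move into the chromosomes over time, and the nuclear copies that result can be annotated as genes. The functional genes are transcribed in the organelle, in plastids by both a plastid-encoded and a nucleus-encoded RNA polymerase. Among the members, 20 are paired in the study's supplementary gene list with an organelle-encoded Arabidopsis gene, 19 of the plastid and 1 of the mitochondrion, and these are called the paired members. That list holds genes the study selected as changed between the lines in either direction, so that the paired members differ between the lines was fixed by their choice, and other members may be organelle copies too. Gene counts alone cannot tell reads of a nuclear copy from reads of the organelle gene itself, or reads from one DNA strand from those of the other. No sequence of the members was at hand.

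The paired members carried one pattern, with 1 epi-F3 high plant far above the other 4 plants. Summed, they stood at 109, 135 and 52.3 CPM in the 3 epi-F3 low plants, in order of replicate throughout, and at 734 and 156 CPM in the 2 epi-F3 high plants. Epi-F3 high replicate 1 was thus 7.44-fold above the epi-F3 low mean, and replicate 2 was 1.58-fold above it. The 2 epi-F3 high plants differed more from each other than the second of them did from the epi-F3 low plants. Of all gene counts the 20 genes took 0.0736% (0.0729 to 0.0744%, 95% Wilson interval) in the first epi-F3 high plant and 0.0170% (0.0167 to 0.0173%) in the second. The epi-F3 low plants lay between 0.00499% (0.00482 to 0.00516%) and 0.0127% (0.0124 to 0.0130%). These intervals cover counting error only. The other 30 members, summed, stood at 962, 944 and 799.7 CPM in epi-F3 low and at 1025 and 836 CPM in epi-F3 high, within 1.14-fold of the epi-F3 low mean in both epi-F3 high plants. The share of reads that fell in no gene was also highest in epi-F3 high replicate 1, at 7.07%, and lowest in epi-F3 low replicate 3, at 3.77%, and its part in the pattern was not tested. In whole leaves, fewer cells of a type and less RNA per cell cannot be told apart.

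**Figure D1:**
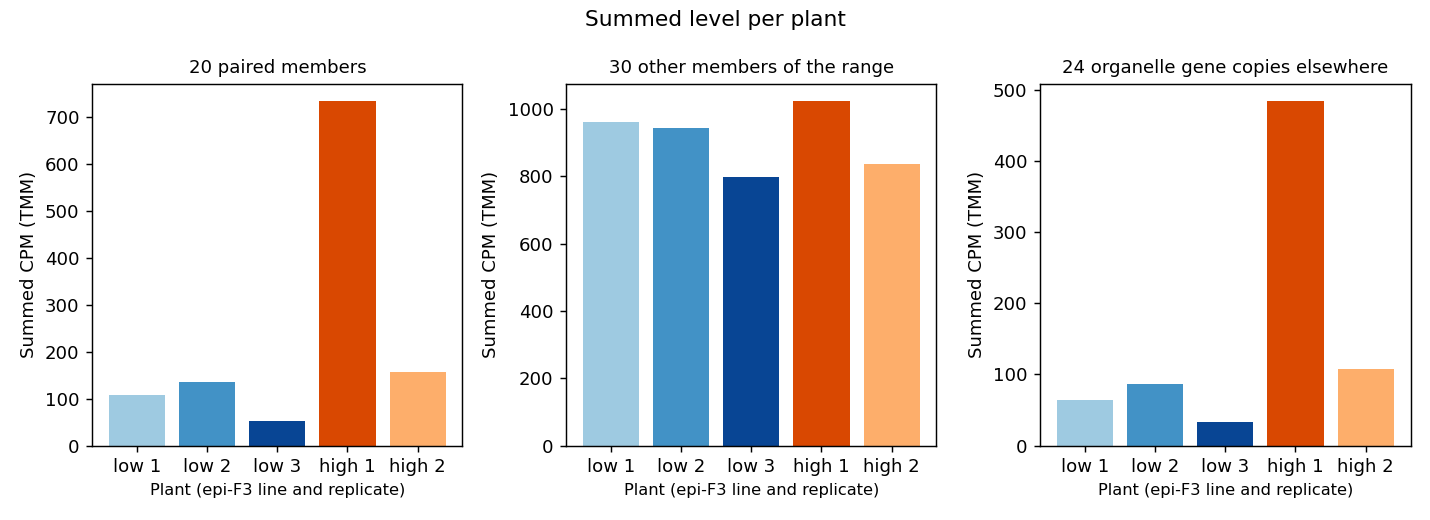
Summed level (TMM CPM, bars from 0) in each of the 5 plants for the 20 paired members, the other 30 members of the range and 24 organelle gene copies elsewhere in the genome. Epi-F3 high replicate 1 stands at 734 CPM for the paired members against 52.3 to 156 CPM in the other plants, while the other members stay between 799.7 and 1025 CPM.

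All 20 paired members were highest in epi-F3 high replicate 1 and lowest in epi-F3 low replicate 3. Of all genes tested, 24.5% were highest in epi-F3 high replicate 1, 18.5% were lowest in epi-F3 low replicate 3, and 7.06% were both. The paired members were chosen on these same plants, so an excess over such shares was in part fixed by that choice. In epi-F3 high replicate 1 each paired member stood at least 2-fold above the epi-F3 low mean, as did 5.89% of all genes, with folds from 4.61 to 42.1 and a median of 7.66. In epi-F3 high replicate 2 the folds ran from 0.753 to 2.33, with a median of 1.46. There, 11 of the 20 lay above all epi-F3 low plants, as did 29.7% of all genes, and 9 lay within their range. The lines did not overlap in those 11, where 9.29% of all genes had both epi-F3 high plants above every epi-F3 low plant. Since replicate 1 was above in all 20, replicate 2 alone set that count. Within epi-F3 low the highest plant was 2.74-fold above the lowest for the median paired member, against 1.45-fold for the median of all genes.

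Lines were compared over all 23098 genes with edgeR's quasi-likelihood test, with calls at adjusted p up to 0.1 and log2 fold changes of 0.5 or more in size. It called 0 of the 50 members, where 0.00433% of all genes, 1 gene, were called. At an unadjusted p under 0.05 it held 21 members as higher in epi-F3 high and 0 as lower, beside 2.26% and 0.961% of all genes. Limma-voom called 0 members (0.0% of all genes), DESeq2 2 (0.333% of the genes to which it gave an adjusted p) and edgeR's exact test 3 (0.221% of all genes). Only 1 of the calls in each of the last 2 was a paired member, *SORBI_3003G168425*. The others, *SORBI_3003G174301* in both and *SORBI_3003G170400* in the exact test, have no pairing and departed from the shared pattern. With the plant number as a replicate block 11 members, 10 of them paired, were called beside 0.303% of all genes, although the labels do not say that these numbers pair the plants. With epi-F3 high replicate 1 left out 1 member was called (0.351% of genes), and with replicate 2 left out 5 were (0.12%). The median log2 fold change was 2.14 for the paired members, 0.07 for the other 30 and 0.02 for all genes. With epi-F3 high replicate 1 left out, that of the paired members was 0.54, and 15 of the 20 stayed above 0. With replicate 2 left out it was 2.94. Either fit has a lone epi-F3 high plant, which is assumed to vary as the epi-F3 low plants do.

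In locus order the paired members formed 2 runs, with a stretch of other genes between them. The first run is 10 consecutive members from *SORBI_3003G168425* to *SORBI_3003G169400*, and the second holds 10 paired members among the 15 members from *SORBI_3003G171900* to *SORBI_3003G173266*. The 16 members between the runs had a median log2 ratio to the epi-F3 low mean of 0.00 in epi-F3 high replicate 1, on log2(CPM + 0.05), against 3.01 in the first run and 2.58 in the second. Only genes selected as changed between the lines could be paired, so this contrast was in part fixed by the labels. In epi-F3 high replicate 2 the medians were 0.10 between the runs, 0.62 in the first run and 0.36 in the second. Of the first run, 8 of 10 stood above every epi-F3 low plant in that replicate, and of the second run 3 of 10, which is near the 29.7% of all genes. Before the first run lie 3 members, and 6 follow the second.

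**Figure D2:**
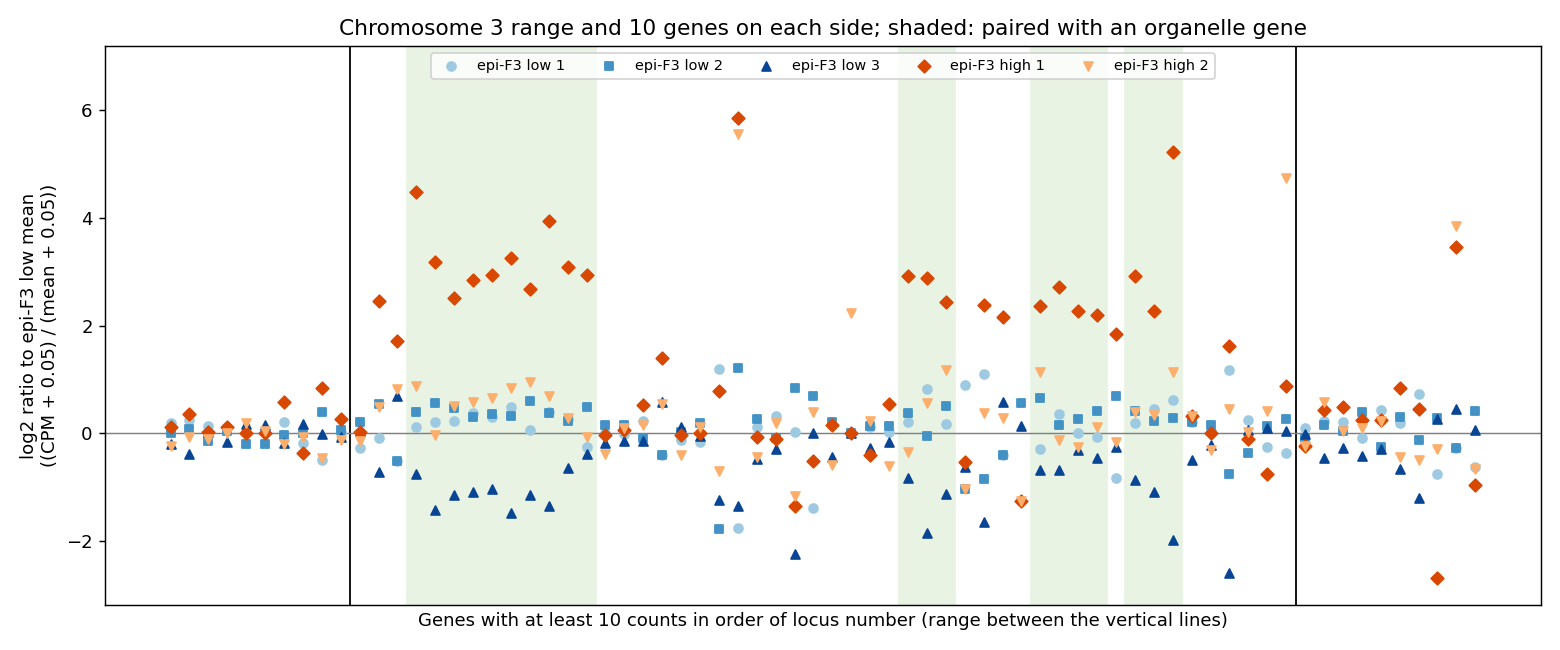
Log2 ratio of each plant to the epi-F3 low mean, on log2(CPM + 0.05), for the 50 members in locus order between the vertical lines and 10 genes on each side, with paired members shaded. Epi-F3 high replicate 1 (dark orange diamonds) rises to between 2.20 and 5.23 in the shaded genes and has a median of 0.00 in the 16 members between the 2 runs.

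The order of the paired members follows stretches of the plastid genome. By the RefSeq gene table of the NCBIv3 assembly, the plastid genes *petD*, *petB*, *psbH*, *psbT* and *psbB* hold places 53, 52, 51, 49 and 48 among 76 differently named protein-coding plastid genes, and members 168600 to 169100 are paired with them in that order. *AtpI*, *rps2* and *rpoC2*, paired with the next 3 members, hold places 16, 15 and 14. In the first run 6 of the 9 neighbouring pairs are neighbours in the plastid genome too, and 1 more pair is 1 gene apart. In the second run this holds for 1 of 9 pairs, *ndhJ* and *ndhK* at places 25 and 26, and 1 further pair is matched to the same gene, *psbB*. In the plastid genome *psbB* lies at 71523 to 73049, *atpI* at 33617 to 34360 and *rbcL* at 57693 to 59123. The table pairs 0 of the sorghum identifiers of the count files with a gene, so positions of the members themselves are not given.

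The 6 members paired with photosystem II genes were 5.49- to 9.80-fold above the epi-F3 low mean in epi-F3 high replicate 1. *PsbB* encodes CP47, an inner antenna protein of the photosystem II core, and 3 members are paired with it. *SORBI_3003G169100*, in the first run, stood at 22.1, 31.9 and 9.43 CPM in epi-F3 low and at 136 and 41.0 CPM in epi-F3 high. In the second run, *SORBI_3003G172300* stood at 6.29, 7.999 and 2.53 CPM in epi-F3 low and at 30.8 and 12.7 CPM in epi-F3 high. In both the lines did not overlap, and epi-F3 high replicate 2 was 1.94- and 2.27-fold above the epi-F3 low mean. *SORBI_3003G172200* was lower throughout, at 1.31, 0.689 and 0.162 CPM in epi-F3 low and 5.65 and 1.08 CPM in epi-F3 high, where the lines overlapped. Their proportions varied across the plants, relative to their size least for *SORBI_3003G169100* and most for the smallest. Of the counts of the 3, *SORBI_3003G169100* took from 74.4% (95% Wilson interval 72.5 to 76.2%) in epi-F3 low replicate 1 to 78.9% (78.0 to 79.8%) in epi-F3 high replicate 1. *SORBI_3003G172300* took from 17.8% (17.0 to 18.7%) in epi-F3 high replicate 1 to 23.2% (21.8 to 24.6%) in replicate 2. These intervals cover counting error only. *SORBI_3003G172200* took 1.34% (10 of 747 counts, 95% Wilson interval 0.729 to 2.45%) in epi-F3 low replicate 3 and 4.41% (92 of 2086 counts, 3.61 to 5.38%) in replicate 1.

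*PsbH*, *psbT* and *psbZ* encode small subunits of photosystem II. The member paired with *psbH* (*SORBI_3003G168800*) stood at 5.15, 5.39 and 2.00 CPM in epi-F3 low and at 32.2 and 6.62 CPM in epi-F3 high. That paired with *psbT* (*SORBI_3003G169000*) stood at 2.73, 2.45 and 0.666 CPM in epi-F3 low and at 19.1 and 3.51 CPM in epi-F3 high. Neither of these 2 members had overlapping lines. *PsbZ* (*SORBI_3003G173116*) stood at 7.48, 8.72 and 3.57 CPM in epi-F3 low and at 50.3 and 8.62 CPM in epi-F3 high, so that epi-F3 high replicate 2 fell just under epi-F3 low replicate 2.

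The cytochrome b6f complex carries electrons between the photosystems, and 3 members are paired with its genes. The one for *petB* (*SORBI_3003G168700*), cytochrome b6, stood at 12.2, 11.6 and 4.40 CPM in epi-F3 low and at 67.7 and 14.1 CPM in epi-F3 high. The one for *petD* (*SORBI_3003G168600*), subunit IV, stood at 7.58, 8.89 and 2.87 CPM in epi-F3 low and at 37.0 and 9.17 CPM in epi-F3 high. In both, epi-F3 high replicate 2 was only slightly above the highest epi-F3 low plant. *PetN* (*SORBI_3003G171900*), a small subunit, had the lowest ratio of the 20 in epi-F3 high replicate 2. It stood at 0.384, 0.435 and 0.162 CPM in epi-F3 low, 2.82 CPM in epi-F3 high replicate 1 and 0.246 CPM in replicate 2, which rests on 16 counts in that plant.

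*AtpI* and 2 ribosomal protein genes had the largest folds of the 20 paired members in epi-F3 high replicate 1. *AtpI* (*SORBI_3003G169200*), a membrane subunit of the chloroplast ATP synthase, stood at 9.19, 9.12 and 2.695 CPM in epi-F3 low and at 108 and 11.3 CPM in epi-F3 high. The fold over the epi-F3 low mean was 15.4 in replicate 1 and 1.62 in replicate 2. Of the counts of the 20 genes it took 14.7% in epi-F3 high replicate 1 and 5.16 to 8.46% in the other 4 plants.

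Of the members, 4 are paired with proteins of the plastid ribosome, and their folds in epi-F3 high replicate 1 ran from 8.86 to 42.1. *Rps15* (*SORBI_3003G173266*), the last paired member in locus order, stood at 0.654, 0.508 and 0.0649 CPM in epi-F3 low and at 17.2 and 0.954 CPM in epi-F3 high. Its counts were 46, 28, 4, 835 and 62, so the lowest level rests on 4 counts. *Rps18* (*SORBI_3003G168425*), the first paired member, stood at 1.65, 2.01 and 0.877 CPM in epi-F3 low and at 35.0 and 2.82 CPM in epi-F3 high, 23.1- and 1.86-fold above the epi-F3 low mean. These 2 genes had the largest folds of the 20 in epi-F3 high replicate 1, and their lines did not overlap. The member next to *rps18*, paired with *rpl20* (*SORBI_3003G168500*), stood at 1.52, 1.94 and 0.455 CPM in epi-F3 low and at 12.3 and 1.28 CPM in epi-F3 high. *Rps2* (*SORBI_3003G169300*) stood at 1.52, 1.47 and 0.779 CPM in epi-F3 low and at 11.1 and 1.54 CPM in epi-F3 high. For these 2, epi-F3 high replicate 2 was 0.978- and 1.22-fold of the epi-F3 low mean, and for *rps2* it exceeded the highest epi-F3 low plant only narrowly.

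**Figure D3:**
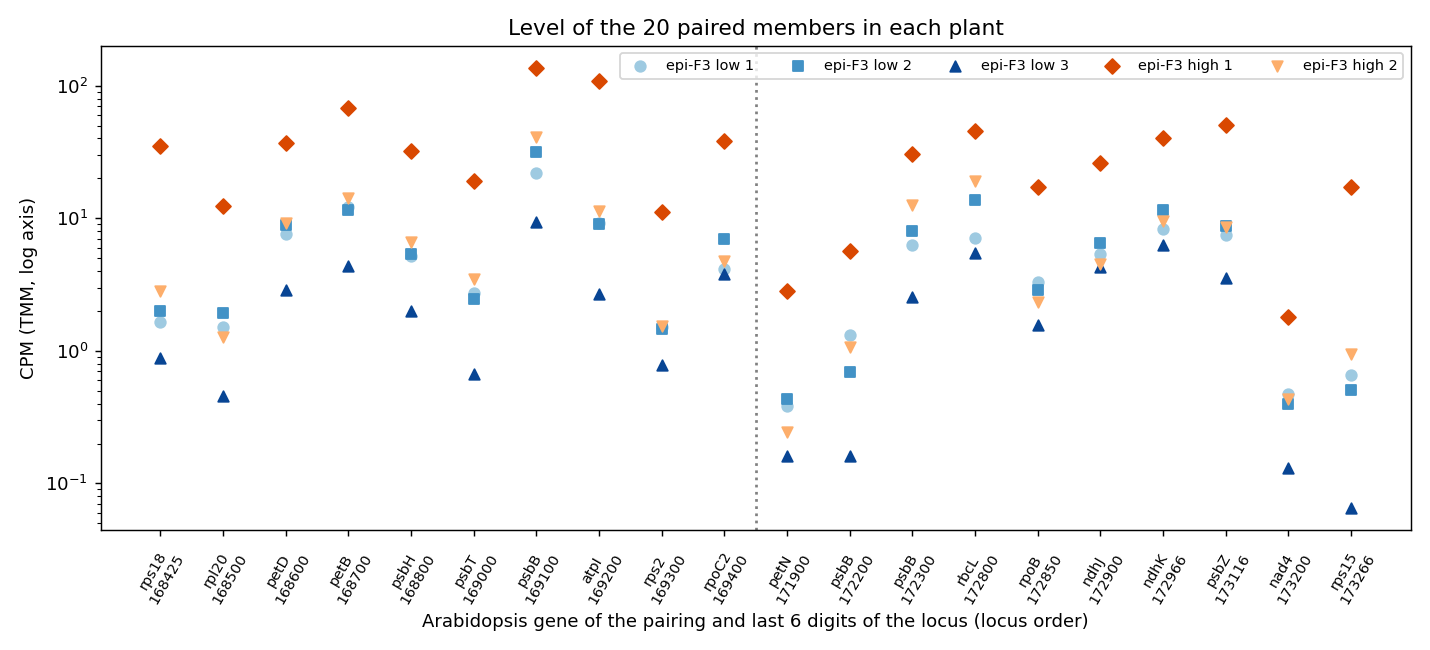
Level (TMM CPM, log axis) of each of the 20 paired members in each plant, in locus order, with a dotted line between the 2 runs. In every gene epi-F3 high replicate 1 (diamonds) is highest and epi-F3 low replicate 3 (dark triangles) lowest, down to 0.0649 CPM for *rps15*.

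*RpoB* and *rpoC2* encode subunits of the plastid RNA polymerase, and in both paired members epi-F3 high replicate 2 lay under the epi-F3 low mean. *RpoB* (*SORBI_3003G172850*) stood at 3.29, 2.87 and 1.58 CPM in epi-F3 low and at 17.2 and 2.34 CPM in epi-F3 high. *RpoC2* (*SORBI_3003G169400*) stood at 4.17, 6.97 and 3.78 CPM in epi-F3 low and at 38.3 and 4.73 CPM in epi-F3 high. The folds were 6.67 and 7.71 in epi-F3 high replicate 1 and 0.908 and 0.950 in replicate 2.

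*NdhJ* and *ndhK*, neighbours in the plastid genome that encode subunits of the NADH dehydrogenase-like complex of cyclic electron flow, had the smallest folds in epi-F3 high replicate 1. *NdhJ* (*SORBI_3003G172900*) stood at 5.40, 6.48 and 4.32 CPM in epi-F3 low and at 26.2 and 4.51 CPM in epi-F3 high. *NdhK* (*SORBI_3003G172966*) stood at 8.32, 11.6 and 6.33 CPM in epi-F3 low and at 40.3 and 9.47 CPM in epi-F3 high. The folds over the epi-F3 low mean were 4.85 and 4.61 in epi-F3 high replicate 1 and 0.835 and 1.08 in replicate 2. They were also the most even of the 20 within epi-F3 low, where the highest plant was 1.499- and 1.83-fold above the lowest.

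*RbcL*, the large subunit of Rubisco, had the smallest difference between the 2 epi-F3 high plants. Its member *SORBI_3003G172800* stood at 7.13, 13.8 and 5.44 CPM in epi-F3 low and at 45.2 and 19.3 CPM in epi-F3 high, and the 2 lines did not overlap. Replicate 1 was 2.35-fold above replicate 2 here, against a median of 5.62-fold over the 20 genes and 18.0-fold for *rps15*. The member paired with a mitochondrial gene, *nad4* (*SORBI_3003G173200*), a subunit of respiratory complex I, kept the same highest and lowest plants. It stood at 0.469, 0.399 and 0.130 CPM in epi-F3 low and at 1.79 and 0.431 CPM in epi-F3 high, with 8 to 87 counts per plant. Epi-F3 low replicate 1 thus stood just above epi-F3 high replicate 2.

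**Figure D4:**
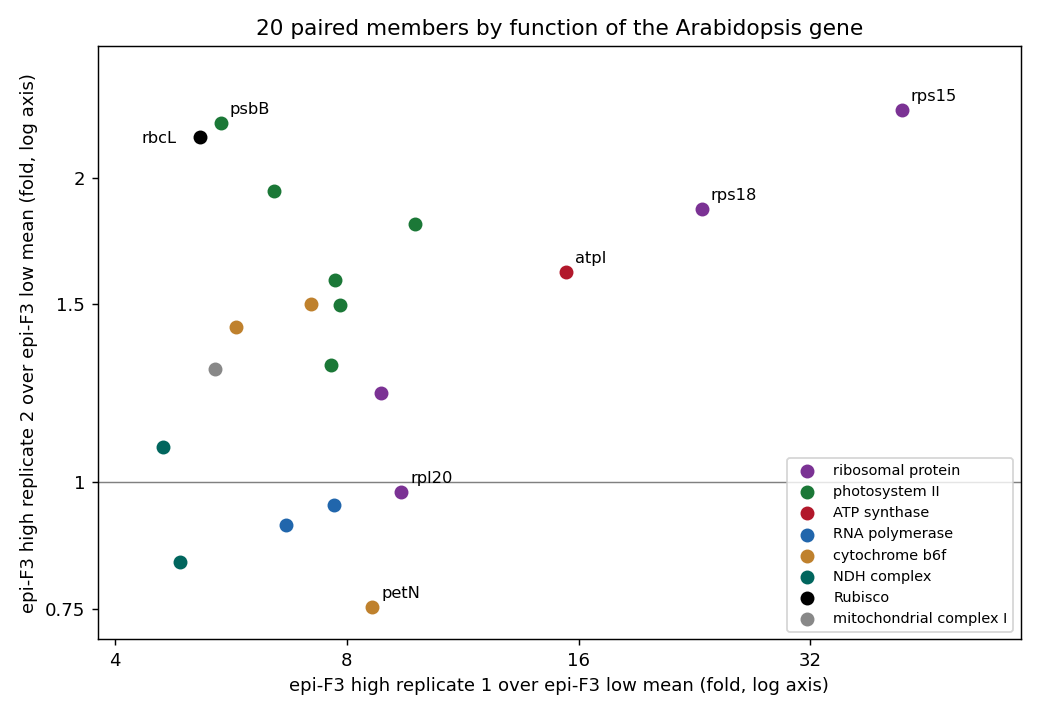
Fold over the epi-F3 low mean in epi-F3 high replicate 1 (horizontal) and replicate 2 (vertical), both on log axes, for the 20 paired members coloured by the function of the Arabidopsis gene. The ribosomal *rps15* and *rps18* and *atpI* lie at 42.1-, 23.1- and 15.4-fold on the horizontal axis, and *ndhJ* and *ndhK* at 4.85- and 4.61-fold.

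Departure from the shared pattern was judged by a fixed rule of size over the 43 members with at least 50 counts. The shared pattern is the median over these members of log2(CPM + 0.05) centred on each gene's own mean, and it was -0.21, -0.10 and -1.17 in epi-F3 low and 1.76 and -0.05 in epi-F3 high. A member departs where its highest plant is not epi-F3 high replicate 1, or where any plant differs from this pattern by more than 1. By this rule 18 members followed it, 16 paired and 2 other, and 25 departed, 4 paired and 21 other. The departing paired members were *rps18*, *atpI* and *rps15*, which exceeded the pattern in epi-F3 high replicate 1 by 1.70, 1.37 and 2.42, and the *psbB* member *SORBI_3003G172200*, which fell below it by 1.16 in epi-F3 low replicate 3. Those members kept epi-F3 high replicate 1 as their highest plant. The pattern is a median over paired and other members together, so these departures are not measured against the paired members alone. With a limit of 1.5 in place of 1, *atpI* and *SORBI_3003G172200* no longer departed, and with a pseudocount of 0.5 CPM *SORBI_3003G172200* did not. With the rule applied from 10 counts, the members paired with *rpl20* and *psbT* departed too.

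The 2 other members that followed the pattern lie beside or within the runs and have no pairing in the list. *SORBI_3003G168200*, before the first run, stood at 2.50, 3.94 and 1.61 CPM in epi-F3 low and at 14.9 and 3.77 CPM in epi-F3 high. *SORBI_3003G173032*, between *ndhK* and *psbZ*, stood at 1.12, 3.34 and 1.70 CPM in epi-F3 low and at 7.48 and 1.83 CPM in epi-F3 high, and its lowest plant was epi-F3 low replicate 1. In both, epi-F3 high replicate 2 was within the range of epi-F3 low.

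Of the 21 other departing members, 15 stayed within 2-fold of the epi-F3 low mean in every plant. Their highest plant was 1.22- to 2.29-fold above their lowest, with a median of 1.53. Among them are the 5 members with the most CPM. *SORBI_3003G170200* stood at 222, 248 and 263 CPM in epi-F3 low and at 237 and 184 CPM in epi-F3 high. The others of the 5 are *SORBI_3003G170700*, *SORBI_3003G171400*, *SORBI_3003G173600* and *SORBI_3003G170900*. *SORBI_3003G170700* stood at 94.4, 105 and 62.8 CPM in epi-F3 low and at 82.9 and 63.9 CPM in epi-F3 high. *SORBI_3003G171400* stood at 84.7, 86.1 and 64.2 CPM in epi-F3 low and at 58.7 and 91.8 CPM in epi-F3 high. The lines overlapped in each of these. *SORBI_3003G173600* stood at 72.9, 78.8 and 61.1 CPM in epi-F3 low and at 71.1 and 56.7 CPM in epi-F3 high. *SORBI_3003G170900* stood at 81.7, 61.2 and 53.6 CPM in epi-F3 low and at 60.8 and 74.3 CPM in epi-F3 high. Of the 15, *SORBI_3003G173400* had both epi-F3 high plants above epi-F3 low, by little, at 13.7, 13.8 and 8.39 CPM against 14.99 and 14.87 CPM. The widest spread was in *SORBI_3003G174100*, at 2.26, 2.99 and 2.91 CPM in epi-F3 low and 1.59 and 3.63 CPM in epi-F3 high. *SORBI_3003G171500* had 58.1, 63.2 and 51.4 CPM against 83.8 and 37.6 CPM. Also among the 15 are *SORBI_3003G168100*, given below, and *SORBI_3003G169500*, *SORBI_3003G169600*, *SORBI_3003G169900*, *SORBI_3003G170300*, *SORBI_3003G171200* and *SORBI_3003G173950*, given by range only.

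The other 6 departing members had orders of plants of their own or larger spreads. *SORBI_3003G170400*, between the runs, had 0, 19 and 1 counts in epi-F3 low and 476 and 521 counts in epi-F3 high. This is 0, 0.345 and 0.0162 CPM against 9.81 and 8.02 CPM, so that both epi-F3 high plants were far above all epi-F3 low plants and close to each other. The log2 fold change of 6.25 had an adjusted p of 0.999 in edgeR's quasi-likelihood test and of 0.0107 in the edgeR exact test, and the alternatives ranged from 0.000686 to 1. With epi-F3 low replicate 2 left out it was 9.85. *SORBI_3003G174301*, the last member, had 12, 16, 15, 23 and 495 counts, and was thus high in epi-F3 high replicate 2 alone, at 7.62 CPM against 0.171 to 0.474 CPM in the other 4 plants. Its log2 fold change was 4.10, and 1.01 without that plant.

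*SORBI_3003G173700* varied widely within epi-F3 low, at 83.2, 21.8 and 6.04 CPM, and stood at 114 and 50.6 CPM in epi-F3 high. Its highest and lowest plants are those of the shared pattern, but epi-F3 low replicate 1 was second. *SORBI_3003G170966* had 2 epi-F3 low plants on top, at 1.99, 3.54 and 0.373 CPM in epi-F3 low and 0.742 and 0.847 CPM in epi-F3 high. *SORBI_3003G170333* had 34, 1, 3, 17 and 6 counts. *SORBI_3003G172500*, in the second run, had 20, 2, 0, 37 and 10 counts, highest in epi-F3 high replicate 1. The 7 members with fewer than 50 counts, *SORBI_3003G168350*, *SORBI_3003G169966*, *SORBI_3003G171100*, *SORBI_3003G171300*, *SORBI_3003G172400*, *SORBI_3003G172600* and *SORBI_3003G172701*, had 12 to 24 counts over the 5 libraries, too few to place. The 12 counts of *SORBI_3003G171300* were all in epi-F3 high replicate 2. Just outside the minimum, the 5 detected rows that are not members had 2 to 6 counts, the highest being *SORBI_3003G168900* with 1, 0, 2, 0 and 3.

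**Figure D5:**
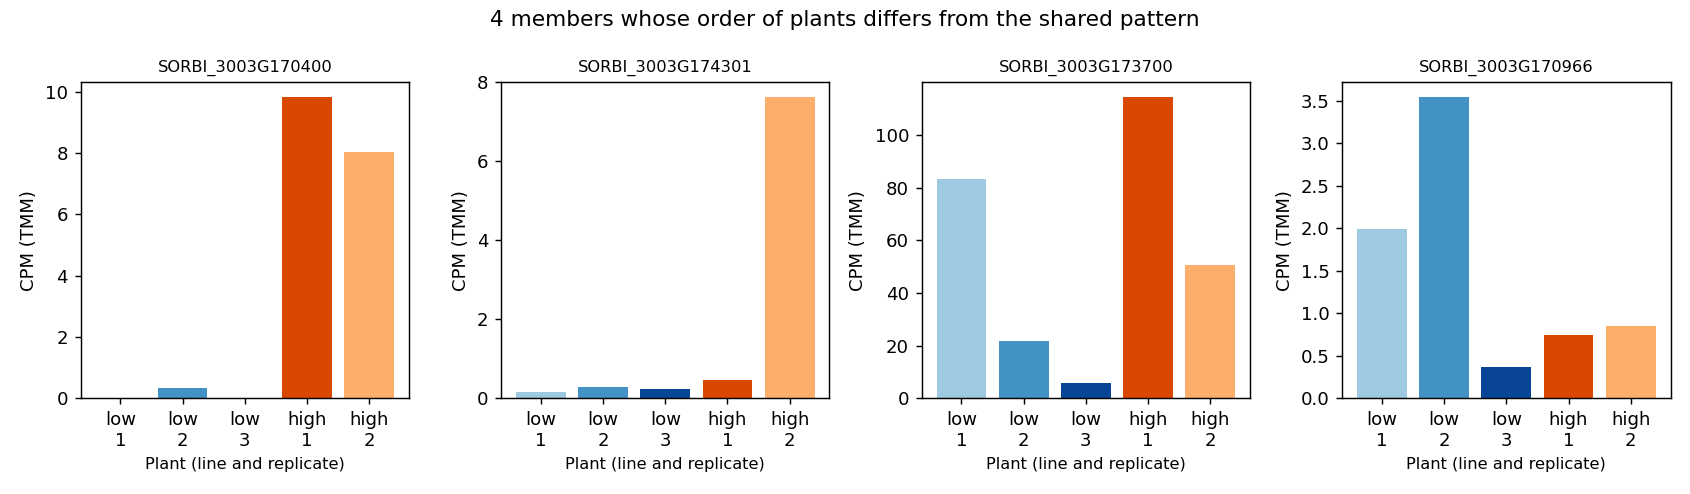
Level (TMM CPM, bars from 0) of *SORBI_3003G170400*, *SORBI_3003G174301*, *SORBI_3003G173700* and *SORBI_3003G170966* in each plant. The first is high in both epi-F3 high plants (9.81 and 8.02 CPM), the second in epi-F3 high replicate 2 (7.62 CPM), the third in epi-F3 high replicate 1 and epi-F3 low replicate 1 (114 and 83.2 CPM), and the fourth in epi-F3 low replicate 2 (3.54 CPM).

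The first member and the nearest gene on each side of the range stayed near the epi-F3 low level in both epi-F3 high plants. *SORBI_3003G168200*, the second member, followed the pattern, and the last member was high in epi-F3 high replicate 2. The first member, *SORBI_3003G168100*, stood at 23.0, 32.01 and 28.8 CPM in epi-F3 low and at 28.1 and 25.2 CPM in epi-F3 high. The gene just before it, *SORBI_3003G167900*, stood at 98.0, 100.3 and 92.2 CPM in epi-F3 low and at 116 and 89.1 CPM in epi-F3 high. The gene just after the range, *SORBI_3003G174450*, stood at 3.54, 3.08 and 3.28 CPM in epi-F3 low and at 2.80 and 2.77 CPM in epi-F3 high. Of the 10 genes before the range 4 were highest in epi-F3 high replicate 1, and of the 10 after it 2. The 10 before it had log2 ratios of -0.37 to 0.83 in that plant, and the 10 after it had -2.70 to 3.46. After it, *SORBI_3003G175500*, with the highest of these ratios, had 0, 0 and 2 counts in epi-F3 low and 30 and 54 in epi-F3 high. *SORBI_3003G175000*, with the lowest, had 10, 19 and 21 counts in epi-F3 low and 0 and 14 in epi-F3 high.

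Organelle gene copies on other parts of the genome had the same plant at the top. Outside the range 24 copies are paired in the same list, and each had its top level in epi-F3 high replicate 1, while 19 were lowest in epi-F3 low replicate 3. Their median log2 ratios to the epi-F3 low mean were 3.13 and 0.89 in the 2 epi-F3 high plants, beside 2.90 and 0.53 for the paired members of the range. The lines did not overlap in 19 of these 24 (79.2%) and in 11 of the 20 (55.0%), beside 9.29% of all genes with both epi-F3 high plants above. Since epi-F3 high replicate 1 was highest in every one of them, replicate 2 alone set both counts. Of all genes, 29.7% had replicate 2 above all epi-F3 low plants. The difference between the 2 sets was not tested, since both were chosen on these plants. Genes found in both places can be set side by side. *RbcL* was 5.15- and 2.19-fold above the epi-F3 low mean in the 2 epi-F3 high plants in the range, and 4.58- and 1.53-fold in *SORBI_3005G194400*, where it stood at 11.01, 18.3 and 7.19 CPM in epi-F3 low and at 55.7 and 18.6 CPM in epi-F3 high. *RpoB* was 6.67- and 0.908-fold in the range, 9.70- and 1.59-fold in *SORBI_3004G115100* on chromosome 4, and 15.6- and 2.71-fold in *SORBI_3002G150032* on chromosome 2, where epi-F3 low replicate 3 had 1 count. The copy with the highest mean CPM outside the range, *SORBI_3004G087000*, paired with *atpB* of the chloroplast ATP synthase, stood at 9.34, 12.6 and 4.63 CPM in epi-F3 low and at 83.0 and 15.9 CPM in epi-F3 high.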

How the data were processed

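TruSeq RNA v2 libraries of 5 plants were read from both ends on DNBseq. The authors trimmed reads with Trim Galore 0.4.1, aligned them to NCBIv3 with STAR 2.7.3a in 2 passes, keeping unique alignments, and counted them per gene with QoRTs. The strand setting is not given in the sources used here. The deposited files hold raw counts for 35567 genes and 5 summary rows, which were left out. The share of reads in no gene was 3.77 to 7.07%. Keeping unique alignments drops reads that match several near-identical copies in the reference. Of the gene rows, 34118 are on chromosomes 1 to 10 or unplaced, 1449 have an ENSRNA identifier and 0 are of any other kind. Whether the organelle genomes were in the alignment reference is not given in the sources used here. It is therefore not known whether the levels rest on reads that differ between nuclear and organelle copies.

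Counts were scaled with TMM in edgeR 4.0.16 (R 4.3.3), genes with 10 or more counts in all 5 libraries together were kept, and lines were compared with the quasi-likelihood test and Benjamini-Hochberg adjustment. Log2 ratios used log2(CPM + 0.05). DESeq2 1.42.0, limma-voom (limma 3.58.1), edgeR's exact test, other filters, size factors and blocks, and leaving out each plant were tried as alternatives. The procedure was tested on simulated data. Named genes are the members by the stated rules, those that depart, and, outside the range, copies with the highest level or the same paired gene. Some departing members that stayed within 2-fold are named without values of their own. The members and gene lists were chosen with earlier results of these data known. Nuclear photosynthesis genes and leaf markers were not analysed here: 0 identifiers matched the RefSeq gene table, and the pairing list holds only genes selected as changed. The lists of pairings came from a table in which the study had selected genes on these samples.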

Additional observations from a re-analysis of the deposited data

How the results depend on the processing

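The count of genes called between the lines was 1 over all genes with edgeR's quasi-likelihood test, 68 with DESeq2, 51 with edgeR's exact test, 12 without a filter, 0 with limma-voom and 0 with filterByExpr, and 0 to 80 when 1 plant was left out. It was 80 without epi-F3 high replicate 1, 27 without replicate 2, 1 when epi-F3 low replicate 1 was left out and 0 when replicate 2 or 3 was. Of the members, 0 were called, 2 with DESeq2, 3 with the exact test, and 0 to 5 when 1 plant was left out, with 5 paired members without epi-F3 high replicate 2. The median log2 fold change of the members was 1.76, 1.33 with limma-voom, and 0.23 to 2.24 when 1 plant was left out, with the lowest without epi-F3 high replicate 1. Correlations of deviations from the line means between same-numbered plants were 0.02 and -0.36 by replicate number and 0.02 and 0.39 by plant number, in 2 pairs. With 2 epi-F3 high plants the deviations of 1 mirror those of the other, so these values cannot decide the pairing. The labels do not say that either numbering pairs the plants, and neither was taken to. With a replicate block by replicate number 7 genes and 0 members were called and the median was 1.05, and with a block by plant number 70 genes and 11 members were called. The median log2 ratio of the members in epi-F3 high replicate 1 was 1.78, 2.27 with a minimum of 100 counts, 2.24 with a pseudocount of 0.01 CPM and 0.80 with 0.5 CPM. Over the paired members alone, a choice made after seeing the data, it was 2.90, the median log2 fold change was 2.14, the summed level was 7.44-fold in place of 1.76-fold, and 20 in place of 31 members were highest in epi-F3 high replicate 1. The summed level of the paired members in epi-F3 high replicate 1 was 6.02- to 9.13-fold above the epi-F3 low mean when 1 epi-F3 low plant was left out. The number of departing members was 25, and 19 to 34 over its alternatives. The cause of these changes was not tested. With 1 line per growth class, line and growth cannot be told apart, and genes with a few counts per plant allow no statement on a change.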
